A study of Mus musculus with 2 samples.

Results

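A set of 3 paralogous microRNA (miRNA) clusters, each with a gene of the miR-99, let-7 and miR-125 families, was examined in neural tube from mouse embryos of strain B6NCrl at embryonic day 11.5. Their 9 members were chosen by symbol among 1973 miRNA genes. The Mir99a cluster holds Mir99a, Mirlet7c-1 and Mir125b-2. The Mir100 cluster holds Mir100, Mirlet7a-2 and Mir125b-1. The Mir99b cluster holds Mir99b, Mirlet7e and Mir125a, with Mirlet7e read from the reads on the strand opposite the row Gm25927. RNA shorter than 30 nt was sequenced from 2 biological replicates of a single group, each a mixed-sex pool, of 109 embryos for replicate 1 and 88 for replicate 2. No treatment, mutant or other stage was included, so the data give levels and the difference between the 2 libraries. With 1 group, the spread over the libraries is the only replicate error, and technical and biological parts of it cannot be told apart.

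A miRNA is cut from a hairpin precursor, and bases 2 to 8 of the mature strand, the seed, pair with target mRNAs. The let-7 and miR-125 families are homologs of let-7 and lin-4, which time larval development in the worm Caenorhabditis elegans. In vertebrates let-7 accumulates as cells differentiate, its precursors being held back in early embryonic cells by the RNA-binding protein LIN28, and miR-125b is known for promoting neuronal differentiation. The miR-99 family, which includes miR-100, is known for acting on mRNAs of the mTOR growth pathway.

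The mature 5′ strands of the clusters fall into 3 seed groups, and they are shown here because the seed sets the targets while the bases after it decide whether a read can be placed at a single gene. Sequences and positions are from RefSeq (GRCm38.p6), where all 9 genes had an entry and 8 had the 5′ strand, Mirlet7a-2 being the other. Seeds are in capitals.
miR-99a-5p: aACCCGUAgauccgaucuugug
miR-100-5p: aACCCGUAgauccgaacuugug
miR-99b-5p: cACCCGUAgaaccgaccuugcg
let-7c-5p: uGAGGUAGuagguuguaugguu
let-7e-5p: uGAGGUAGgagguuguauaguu
miR-125b-5p: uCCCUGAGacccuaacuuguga
miR-125a-5p: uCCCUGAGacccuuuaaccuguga

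Counting from 1 at the 5′ end, miR-100 and miR-99a differ by the single substitution A16U. Relative to miR-99a, miR-99b carries A1C, U11A, U16C and U21C, all outside the seed. Relative to let-7c, let-7e carries U9G and G19A. The strand miR-125b-5p is identical from Mir125b-1 and Mir125b-2, and miR-125a shares its first 13 bases. The strand let-7c-5p of Mirlet7c-1 is identical to that of Mirlet7c-2, which lies outside the clusters. On the 3′ side, miR-99a-3p and miR-99b-3p share a seed as well.
miR-99a-3p: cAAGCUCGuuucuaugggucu
miR-99b-3p: cAAGCUCGugucuguggguccg

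Spacing differs between the clusters, whereas the order of the 3 families is the same in each. Positions are those of GENCODE M21 on GRCm38 (mm10), and all 9 genes lie on the plus strand. Mir99a (chromosome 16, 77598936 to 77599000) and Mirlet7c-1 (77599657 to 77599750) are 0.656 kb apart, and Mir125b-2 (77646273 to 77646343) follows 46.5 kb further on. The 3 lie in introns of the noncoding host Mir99ahg. Mir100 (chromosome 9, 41531425 to 41531504) is 5.21 kb from Mirlet7a-2 (41536716 to 41536811), and Mir125b-1 (41581926 to 41582002) lies 45.1 kb beyond. These are in introns of the noncoding genes 3110039I08Rik and Gm49317, and Mir125b-1 also overlaps an exon of the sense intronic transcript Gm28119. The Mir99b cluster spans only 0.692 kb of chromosome 17, with Mir99b at 17830188 to 17830257, Mirlet7e at 17830352 to 17830444 and Mir125a at 17830812 to 17830879. It lies inside the protein-coding gene Spaca6, known from sperm-egg fusion, and Mir125a overlaps an annotated exon of it.

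**Figure D1:**
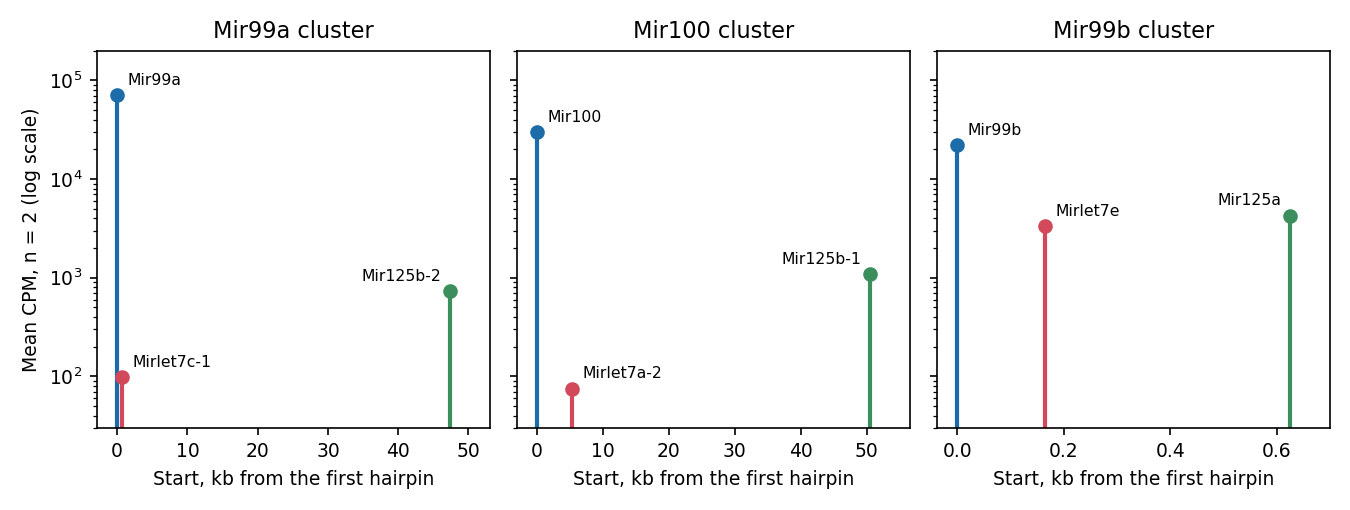
Mean CPM over the 2 libraries on a log scale (y axis) against the start of each hairpin in kb from the first hairpin of its cluster (x axis, a different range in each panel). The miR-99 gene comes first and stands highest in each panel, and the Mir99b cluster is packed into 0.692 kb where the others span 47.4 and 50.6 kb.

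Replicate 1 held 3708662 counts on the own strand of miRNA genes and replicate 2 held 4055883. Levels are counts per 1000000 of these (CPM), with mean ± SD over n = 2, and are given per hairpin with no length correction. Capture of each miRNA by the library preparation was not measured, and a ratio between genes is therefore one of counts. Of the markers checked for the labelled tissue, the neural progenitor gene Mir92b held 4979 ± 383 CPM, while the neural copies Mir9-2 and Mir124a-1 held 2.31 ± 0.218 and 2.46 ± 0.338 CPM and were thus near 0 among assigned reads. Both have further gene copies, and those given here were named after their values were seen. Mir9-3 held a mean of 200 CPM, from 741 counts in replicate 1 and 813 counts in replicate 2. Mir124a-2 and Mir124a-3 held means of only 10.5 and 1.56 CPM. Since reads that fitted several places were assigned to no gene, these low values do not show a low level of mature miR-9 or miR-124. The endothelial Mir126a held 23624 ± 1869 CPM, the mesenchymal Mir214 9943 ± 2793, the skeletal muscle Mir206 1060 ± 423 and the erythroid Mir451a 418 ± 101. A single gene stands for each type there. Further genes, named after their values were seen, held less. The muscle Mir133b held a mean of 36.2 CPM, the mesenchymal Mir199b 380 and the erythroid Mir144 25.7. No further endothelial gene is given. The part of such cells in the values given here was not tested, and in this bulk tissue fewer cells of a type and less RNA per cell cannot be told apart.

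The 9 genes together took 12.15% of the counts on either strand of miRNA genes in replicate 1 (95% Wilson interval 12.12 to 12.19) and 13.79% in replicate 2 (13.76 to 13.83). The total of either strand is used for this share because the Mirlet7e reads are not among the own-strand counts, whereas its CPM, like that of every gene, is per 1000000 own-strand counts. Intervals cover counting error only, since reads without molecular identifiers are not independent molecules. By cluster, the Mir99a cluster held 64337 CPM in replicate 1 and 79028 CPM in replicate 2, a mean of 71683 ± 10388 CPM. The Mir100 cluster held 28087 and 33975 CPM, a mean of 31031 ± 4164 CPM. The Mir99b cluster held 31688 and 27258 CPM, a mean of 29473 ± 3132 CPM. The Mir99a cluster was the highest in both libraries. The other clusters changed places, with Mir99b above Mir100 in replicate 1 and below it in replicate 2, so their order was not resolved.

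The miR-99 family genes carried nearly all of these counts. Mir99a stood at 63508 CPM in replicate 1 and 78209 CPM in replicate 2, a mean of 70859 ± 10395, and ranked number 3 of the 1973 genes in each library. Mir100 stood at 26798 and 32954 CPM, a mean of 29876 ± 4353, and ranked 7 and 6. Mir99b stood at 22489 and 21350 CPM, a mean of 21920 ± 805, and ranked 9 in both. The ranges of the 3 genes did not overlap. Mir99a exceeded Mir100 by 2.370-fold (replicate 1) and 2.373-fold (replicate 2), a ratio that differed between the libraries by less than counting error (1.00-fold, 95% interval 0.989 to 1.01). Mir99a exceeded Mir99b by 2.82-fold (replicate 1) and 3.66-fold (replicate 2). No other gene of the RefSeq table has this seed on a mature strand.

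The miR-125 genes came next. Mir125a stood at 5286 CPM in replicate 1 and 3210 CPM in replicate 2, a mean of 4248 ± 1468. Mir125b-1 stood at 1199 and 962 CPM, a mean of 1080 ± 168, and Mir125b-2 at 721 and 732 CPM, a mean of 727 ± 7.96. The ranges of these genes did not overlap either. Mir125a exceeded Mir125b-1 by 4.41-fold (replicate 1) and 3.34-fold (replicate 2), and Mir125b-2 by 7.33-fold and 4.38-fold. The counts assigned to Mir125b-1 and Mir125b-2 differed by 1.66-fold (replicate 1) and 1.31-fold (replicate 2), with Mir125b-1 the higher. Their common 5′ strand fits both genes, and reads that fitted several places were assigned to none. The ratios with Mir125b-1 or Mir125b-2 therefore cover only reads placed at a single gene and are not ratios of mature miR-125b. Which strand gave the assigned reads was not tested.

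Among the let-7 genes, Mirlet7e of the compact cluster stood far above its paralogs, which share long runs with copies elsewhere. It held 3914 CPM in replicate 1 and 2698 CPM in replicate 2, a mean of 3306 ± 859. Mirlet7c-1 held 108 and 87.0 CPM, a mean of 97.7 ± 15.1, and Mirlet7a-2 held 89.8 and 59.7 CPM, a mean of 74.7 ± 21.3. Mirlet7e thus exceeded Mirlet7c-1 by 36.1-fold (replicate 1) and 31.0-fold (replicate 2), and Mirlet7a-2 by 43.6-fold and 45.2-fold. The ranges of Mirlet7c-1 and Mirlet7a-2 overlapped, as did those of Mir125a and Mirlet7e, so the ranges alone separated neither pair. Within the same library, Mirlet7c-1 exceeded Mirlet7a-2 by 1.21-fold (replicate 1) and 1.46-fold (replicate 2). Mir125a exceeded Mirlet7e by 1.35-fold (replicate 1) and 1.19-fold (replicate 2). All other neighbours in the order of the 9 genes had ranges apart.

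**Figure D2:**
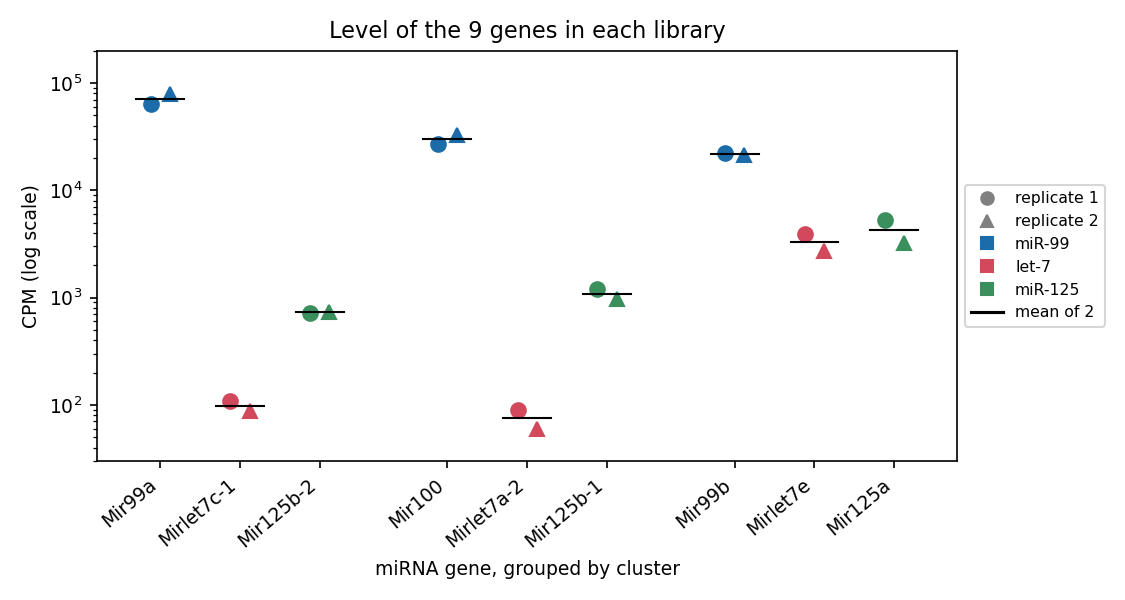
CPM on a log scale (y axis) for the 9 genes, grouped by cluster (x axis). Circles are replicate 1, triangles replicate 2, black lines the mean of the 2 and colours the seed family, and the levels run from 70859 CPM for Mir99a to 74.7 CPM for Mirlet7a-2.

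The Mirlet7e values rest on the strand on which its reads were counted. Gm25927 (chromosome 17, 17830343 to 17830459, minus strand) is annotated as a miRNA on the strand opposite Mirlet7e and encloses it. The row held 0 own-strand reads in both libraries and 14514 and 10944 reads on the opposite strand. These 0 counts allow an own-strand share of up to 0.0207% in replicate 1 and 0.0274% in replicate 2. Of the other 8 members, only Mir125b-1 had any opposite-strand read, with 2 of them in replicate 1. Among 312 genes with at least 100 reads on either strand, 10 had most of them on the opposite strand, and Gm25927 was number 2 of these by reads. Its share of all opposite-strand gene counts was 18.5% and 15.9%.

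Among assigned reads, the makeup of the clusters by seed family was uneven. The miR-99 genes took 98.71% of the Mir99a cluster's counts in replicate 1 and 98.96% in replicate 2, 95.4% and 97.0% of the Mir100 cluster's, and 71.0% and 78.3% of the Mir99b cluster's. In the Mir99b cluster, Mir125a took 16.7% and 11.8% and Mirlet7e 12.4% and 9.90%. The let-7 gene took 0.168% and 0.110% of the Mir99a cluster and 0.320% and 0.176% of the Mir100 cluster. Each cluster gave the order miR-99, miR-125, let-7 in both libraries, among reads placed at a single gene. Mirlet7c-1 and Mirlet7a-2 share 23 nt with hairpins elsewhere, and Mir125b-1 and Mir125b-2 share 24 nt with each other. Mirlet7e and Mir125a share at most 17 nt. How far reads that fitted several places, and so were not assigned, bear on the contrast between clusters was not tested. Over the 3 clusters the miR-99 genes took 92.7% ± 2.54, the miR-125 genes 4.65% ± 1.63 and the let-7 genes 2.67% ± 0.908.

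**Figure D3:**
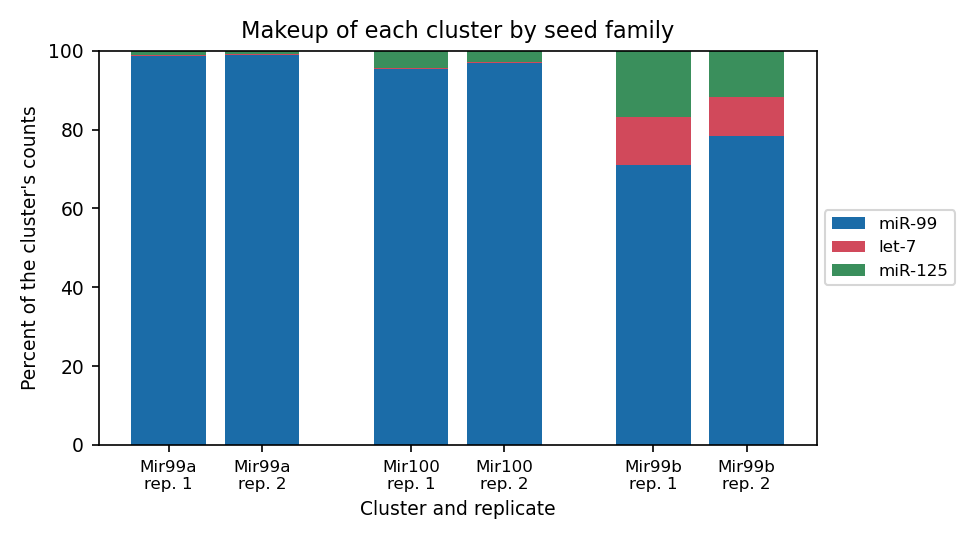
Percent of each cluster's counts, from assigned reads only (y axis), by seed family, with a bar for each cluster and replicate (x axis). The miR-99 share is at least 95.4% in the Mir99a and Mir100 clusters and 71.0% and 78.3% in the Mir99b cluster.

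Within a cluster, the ratio of the miR-99 gene to its neighbours differed widely from cluster to cluster and moved between the libraries. Mir99a exceeded Mirlet7c-1 by 586-fold (replicate 1) and 899-fold (replicate 2), and Mir125b-2 by 88.1-fold and 107-fold. Mir100 exceeded Mirlet7a-2 by 298-fold and 552-fold, and Mir125b-1 by 22.3-fold and 34.3-fold. In the compact cluster, Mir99b exceeded Mirlet7e by 5.75-fold and 7.91-fold, and Mir125a by 4.25-fold and 6.65-fold. All 6 ratios were lower in replicate 1, and the size of the change, from 1.21-fold for Mir99a over Mir125b-2 to 1.85-fold for Mir100 over Mirlet7a-2, exceeded counting error (95% intervals 1.15 to 1.28 and 1.57 to 2.18). These ratios need no library scaling. The ratio of the miR-125 gene to the let-7 gene was higher in replicate 2 by 1.26-fold in the Mir99a cluster and by 1.21-fold in the Mir100 cluster, and higher in replicate 1 by 1.14-fold in the Mir99b cluster.

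Levels stood beside a property of the sequences that bears on counting. Reads that fitted several places in the genome were assigned to no gene, and they numbered 2153217 in replicate 1 and 2088167 in replicate 2, which is 4.68 and 3.67 times all counts on the 9 genes. The hairpins of Mir125b-1 and Mir125b-2 share a run of 24 nt that holds the whole miR-125b-5p. Mirlet7c-1 shares 23 nt with Mirlet7c-2, and Mirlet7a-2 shares 23 nt with Mirlet7a-1, the copy of let-7a outside the clusters. The other 5 members share at most 17 nt with any hairpin elsewhere, with 16 nt between Mir99a and Mir100. The 4 members with a shared run of at least 20 nt lay between 59.7 and 1199 CPM, and the 5 without lay between 2698 and 78209 CPM, so the 2 sets did not overlap. How many of the unassigned reads came from the shared strands was not tested. The counts of the 4 genes are therefore uncertain, and the ratios that involve them cover only the reads that were assigned.

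Among let-7 genes outside the clusters, the 5 without such a run lay above the 3 with one in each library. The lowest without a run was Mirlet7b and the highest with one was Mirlet7f-2, and the ranges of these neighbours over the 2 libraries overlapped. Mirlet7g and Mirlet7i, with runs of 19 nt shared between them, held 10021 ± 978 and 6573 ± 1705 CPM, and Mirlet7d and Mir98 held 1066 ± 367 and 683 ± 96.6 CPM. Mirlet7b, whose let-7b-5p carries A17G relative to let-7c and whose hairpin shares at most 19 nt, held 171 ± 43.6 CPM, with 202 CPM in replicate 1 and 140 CPM in replicate 2. Of the let-7 genes that share at least 20 nt, Mirlet7f-2 held 132 ± 15.2 CPM, with 142 and 121 CPM, Mirlet7a-1 32.8 ± 10.1 and Mirlet7c-2 24.0 ± 9.90. No counts were listed under Mirlet7f-1, so it was not analysed here.

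**Figure D4:**
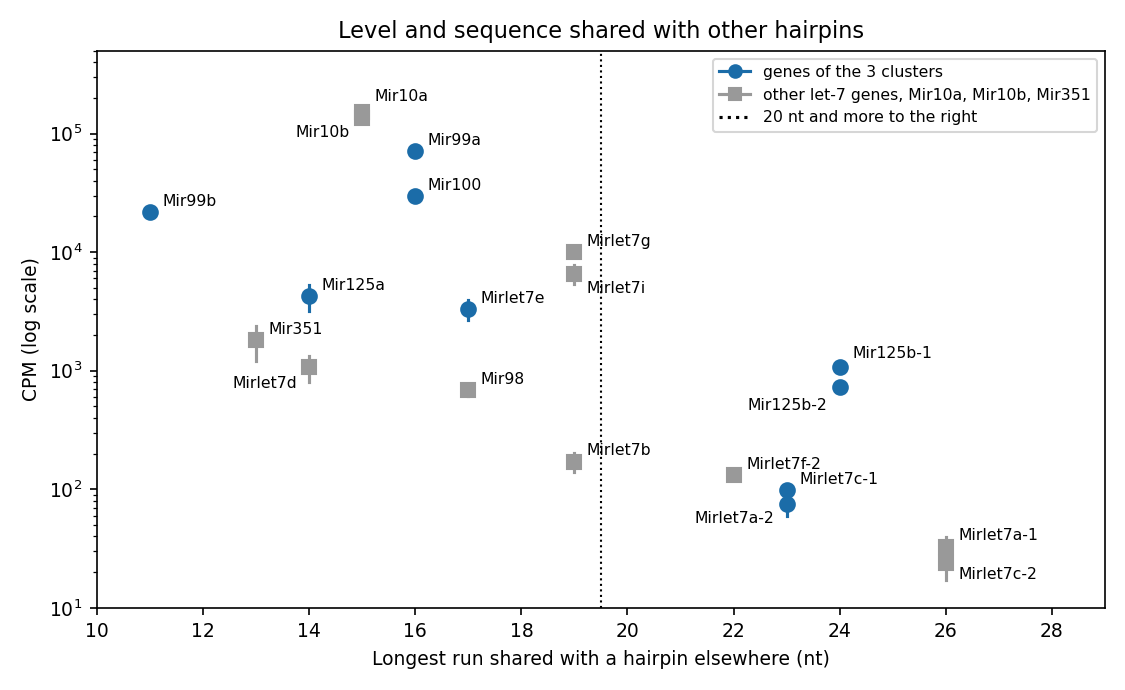
Mean CPM on a log scale (y axis) against the longest run of bases that a hairpin shares with a hairpin elsewhere in the genome (x axis). Circles are genes of the 3 clusters, squares other let-7 genes, Mir10a, Mir10b and Mir351, and vertical lines join the 2 libraries. Right of the dotted line, at 20 nt and more, the cluster genes lie at 1199 CPM or less in each library.

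Set beside the rest of their families, the cluster genes held all miR-99 counts, most miR-125 counts and a small share of let-7 counts. Of the counts on genes with the let-7 seed, Mirlet7e, Mirlet7c-1 and Mirlet7a-2 took 16.4% in replicate 1 and 14.8% in replicate 2. Counts were available for 13 of the 14 genes with this seed, Mirlet7f-1 being the other. Mirlet7e lay below Mirlet7g by 2.74-fold and 3.46-fold and below Mirlet7i by 1.99-fold in both libraries, and above Mirlet7d by 2.95-fold and 3.34-fold. Of the counts on genes with the miR-125 seed, Mir125a, Mir125b-1 and Mir125b-2 took 75.0% and 80.2%. The remainder came from the X-linked Mir351, which shares only the first 8 bases with miR-125a and held 1806 ± 841 CPM. Mir125a exceeded it by 2.20-fold and 2.65-fold. Seed genes with copies that share long runs can be counted in part, so these shares cover assigned reads.
miR-351-5p: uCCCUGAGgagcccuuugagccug

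The miR-10 family of the Hox clusters has another seed, although miR-10a and miR-99a have a run of 10 nt in common, and its genes Mir10a and Mir10b were the most abundant of all 1973.
miR-10a-5p: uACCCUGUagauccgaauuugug
miR-10b-5p: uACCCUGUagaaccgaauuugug
The 3 miR-99 genes together held 0.426 times the counts of Mir10a and Mir10b in replicate 1 and 0.424 times in replicate 2. Mir99a alone held 0.457 and 0.468 times the counts of Mir10a. By nearness of level over the 2 libraries, measured as the distance in log2(CPM + 1), the non-member genes closest to Mir99a were Mir335 (distance 0.89) and Mir17 (0.96). Those closest to Mir100 were Mir130a (0.28) and Mir126a (0.57), and those closest to Mir99b were Mir126a (0.16) and Mir30e (0.40). With 2 libraries this likeness describes level only.

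Set against the median gene, all 3 miR-99 genes lay on the replicate 2 side. So did Mir10a and Mir10b, with log2 ratios (replicate 1 over replicate 2) of -0.26 and -0.21, against a median of 0.27. With these 2 genes on the same side, the shift was not particular to the miR-99 genes. Each gene named above as nearest in level lay there as well. These were Mir335 (0.05), Mir17 (-0.02), Mir130a (-0.0004), Mir126a (0.16) and Mir30e (0.19). Their choice used the levels in both libraries, so their side is no separate support. Mirlet7e, Mirlet7a-2 and Mir125a lay on the replicate 1 side and Mir125b-2 on the replicate 2 side, while Mirlet7c-1 and Mir125b-1 lay close to the median gene. The counts of each gene in the libraries were compared by an exact binomial test, two-sided and with Benjamini-Hochberg adjustment over 445 genes. Of the 9 members 8 differed, with 6 higher in replicate 1 and 2 higher in replicate 2. Of all tested genes 53.3% differed, 45.4% being higher in replicate 1 and 7.87% in replicate 2. With the TMM factors of edgeR as scaling, 7 members differed, 3 higher in replicate 1 and 4 in replicate 2. Of all tested genes 40.2% then differed, 18.7% being higher in replicate 1 and 21.6% in replicate 2. The part of all calls that was higher in replicate 1 was 46.4% with TMM scaling and 85.2% by library total. The test knows counting noise only and compares these libraries, not conditions, so small differences of abundant genes pass it. The members' median log2 ratio (replicate 1 over replicate 2) was 0.32, and that of all tested genes was 0.27. Other scalings moved the value of all tested genes to between -0.02 and 0.06, and each ratio is therefore also given relative to the median gene.

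Mir99a was 1.23-fold higher in replicate 2 (95% interval 1.22 to 1.24), and Mir100 was 1.23-fold higher as well (1.22 to 1.24). Both log2 ratios lay 0.57 below that of the median gene, and 8.99% and 9.21% of tested genes had a lower one. Mir99b was 1.05-fold higher in replicate 1 (1.04 to 1.06, exact binomial adjusted p = 5.89e-26), but its log2 ratio lay 0.19 below the median gene, and with TMM scaling it turned to the replicate 2 side at -0.21. Mir125a had the largest ratio of the 9 by library total, at 1.65-fold higher in replicate 1 (1.61 to 1.68), and lay 0.45 above the median gene on the log2 scale. Mirlet7a-2 was higher in replicate 1 by 1.505-fold (1.27 to 1.78, exact binomial adjusted p = 3.61e-06), and Mirlet7e 1.45-fold higher (1.41 to 1.49, exact binomial adjusted p = 1.74e-190). Mirlet7c-1 and Mir125b-1 were each higher in replicate 1 by 1.25-fold (exact binomial adjusted p = 0.00618 and 3.78e-23), which was 0.05 above the median gene on the log2 scale for both, and neither passed with TMM scaling. Mir125b-2 did not pass (0.985-fold, 0.934 to 1.04, exact binomial adjusted p = 0.683) by library total, but it passed towards replicate 2 with TMM scaling, at a log2 ratio of -0.31, with DESeq2 size factors, at -0.26, and with the total taken without the 10 most abundant genes, at -0.23. As a coefficient of variation over the 2 libraries, the members had a median of 15.5%, against 13.9% for the 273 genes with at least 200 counts over both libraries.

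**Figure D5:**
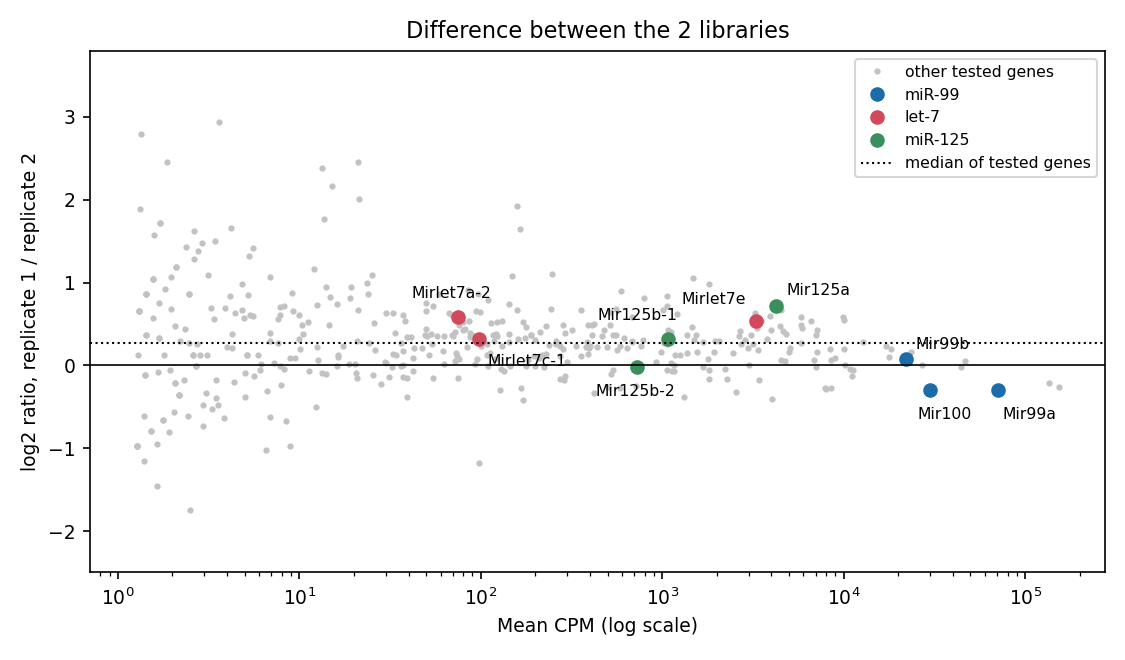
Log2 ratio of replicate 1 over replicate 2 (y axis) against mean CPM on a log scale (x axis) for the 445 tested genes. Coloured points are the 9 genes by seed family, grey points the others, the solid line marks equality and the dotted line the median of tested genes at 0.27. Mir99a and Mir100 lie at -0.30, and Mir125a at 0.72.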

How the data were processed

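The authors deposited raw read counts per miRNA gene for 2 libraries, for assembly mm10 and annotation M4, per the file headers. Which aligner and counter were used is not given in the sources used here. Each file has 3 unnamed columns of counts, read as either strand, own strand and opposite strand because the first sums to the other 2. Own-strand counts were used, except for Mirlet7e. Rows that name no gene were left out of library sizes; these formed 56.5% of reads for replicate 1 and 47.0% for replicate 2. The number of per-sample columns tied to no sample was 0.

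Symbols and positions came from GENCODE M21 by identifier (1894 of 1973 matched). Shared runs were sought between M21 hairpins on both strands at other loci. Genes with at least 10 summed counts were compared by the two-sided exact binomial test. The threshold was 0.05 on the Benjamini-Hochberg adjusted p, with a pseudocount of 0.5 counts in log2 ratios. The test was tried on simulated counts with counting noise only, which cannot show how it treats spread between replicates. Ratio intervals are Clopper-Pearson for single genes and Woolf log intervals for changes of gene ratios. Alternatives used TMM (edgeR 4.0.16), DESeq2 1.42.0 size factors, other totals, filters, pseudocounts and strands, under R 4.3.3, Python 3.11.15 and scipy 1.17.1. Named genes were the 9 members, the let-7 genes outside the clusters, Mir10a, Mir10b, Mir351, 7 cell type markers and the 2 genes nearest in level to each miR-99 gene. Further copies of the markers and further genes of their cell types were added later. The members and lists were chosen with earlier results of these data known.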

Additional observations from a re-analysis of the deposited data

How the results depend on the processing

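The cluster sums stayed within 1 SD of their means with either-strand counts and with TMM scaling. Per 1000000 of all reads, unassigned ones included, they were 34920 for the Mir99a cluster, 15106 for the Mir100 cluster and 14109 for the Mir99b cluster, lower because the total is larger. With 2 libraries, leaving out a replicate returns the values of the other library and is no added check. It gave 64337 to 79028 CPM for the Mir99a cluster, 28087 to 33975 CPM for the Mir100 cluster and 27258 to 31688 CPM for the Mir99b cluster. The miR-99 share of the 3 clusters likewise ran from 90.9% to 94.5%, the values of the single libraries, when a replicate was left out. Over the 5 members with no shared run of 20 nt it was 94.1%. The members left out there are all let-7 or miR-125 genes, so the share could only rise. It does not show what the share would be with their unassigned reads. Between the libraries, 7 or 8 members passed the test under each alternative run, and 179 to 245 genes in all. Of calls, 85.2% were higher in replicate 1 by library total, 46.4% with TMM scaling, 54.8% with DESeq2 size factors and 59.5% with the total taken without the 10 most abundant genes. Under these 3 scalings Mir99b changed direction, with log2 ratios of -0.21, -0.16 and -0.13, Mir125b-2 passed towards replicate 2 and Mirlet7c-1 no longer passed. These scalings differ from the main one in the ratio of library sizes alone. No paired analysis was possible because there is 1 group of 2 samples. Depth limits single genes at 0 counts to 0.809 CPM in replicate 1 and 0.740 CPM in replicate 2.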
